A study of Drosophila melanogaster with 6 samples.

Results

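The genes described here encode proteins of the presynaptic active zone, of synaptic vesicle fusion and recycling, and of synapse organisation in Drosophila melanogaster. They were chosen by name as a list of 36 genes, all of which were found by symbol among the 13922 protein-coding genes that the RefSeq Release 6 table places on arms 2L, 2R, 3L, 3R, 4 and X. A gene was counted as carrying an interval of the deposited DamID list when its body with 1 kb on each side overlapped the interval by at least 1 bp. By that rule 11 of the 36 genes (30.6%, Wilson 95% interval 18.0% to 46.9%, counting error only) carried 19 intervals, and 25 carried none. Over all protein-coding genes the share was 10.9%, but the synaptic genes are long, and over genes of their length deciles it was 34.4%.

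The list comes from a Targeted DamID study of T4/T5 neurons, the motion-sensitive cells of the fly optic lobe, in which the bacterial adenine methylase Dam marks GATC sites in living cells. The study set 3 Dam-Drgx samples, with the transgene UAS-Dam-DRGX, against 3 Dam samples, with the transgene UAS-Dam. Both groups also carried UAS-CD8-GFP (a membrane reporter), tubGal80ts (a temperature-sensitive Gal4 repressor) and the driver R23G12-Gal4. Larvae were reared at 18 °C to the third instar and kept at 29 °C for 24 h, and brain DNA was then taken, with methylation limited to cells in which the driver is active. The labels do not say how many animals each sample pooled.

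The fused protein, Drgx, is a transcription factor with a homeodomain of the Paired-like class. One list of 2396 intervals stood for the whole series, of which 2394 lay on the 6 arms, and it named no sample. Replicate spread, read depth and the separate Dam and Dam-Drgx signals were therefore not analysed here, and no test between the groups was made. The intervals were taken to be the regions that the submitters called for Dam-Drgx over Dam. Each has a deposited score, whose unit is not stated and which was used only to rank intervals within the list, and a deposited false discovery rate (FDR). An interval list holds no expression values, so the labelled cell type could not be set against its markers.

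At a chemical synapse, scaffold proteins of the active zone hold vesicles near calcium channels. SNARE proteins fuse the vesicle with the membrane when synaptotagmin binds calcium, and endocytic proteins then retrieve the membrane. Neurexin and neuroligins join the pre- and postsynaptic sides. Neurons switch on these genes as they mature, and T4/T5 neurons are still differentiating in the late larva.

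Within the list, intervals were found at 4 of 5 synaptotagmin genes, at 4 of 7 genes of synapse organisation, at 1 of 7 SNARE and fusion regulator genes and at 2 of 4 other synaptic genes. None of the 5 active zone scaffold genes, the 2 vesicle-associated protein genes or the 6 endocytosis genes carried one. At the shares of protein-coding genes in 7 narrower length classes, 1.84 synaptotagmin and 3.72 synapse organisation genes would have carried one (1.67 and 3.34 by length decile). The values were 1.46 for SNARE and fusion regulator genes (1.41 by decile) and 1.42 for other synaptic genes (1.52). They were 2.18 for active zone scaffold (2.06), 0.966 for vesicle-associated (0.953) and 1.26 for endocytosis genes (1.44). The narrower classes were added after the data were seen. Role group values below use them unless deciles are named. These role groups hold few genes, they differ in gene length, and the difference between them was not tested. All 11 genes were overlapped in the gene body itself, so no gene owed its count to the flanks. Of the 19 intervals, 17 lay wholly inside the gene body, 1 spanned the left end of cpx and 1 the right end of Syt1. The gene table gives neither strand nor exons, so left and right follow the chromosome, and whether an interval lay at the start of a gene, in an exon or in an intron was not analysed here.

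**Figure D1:**
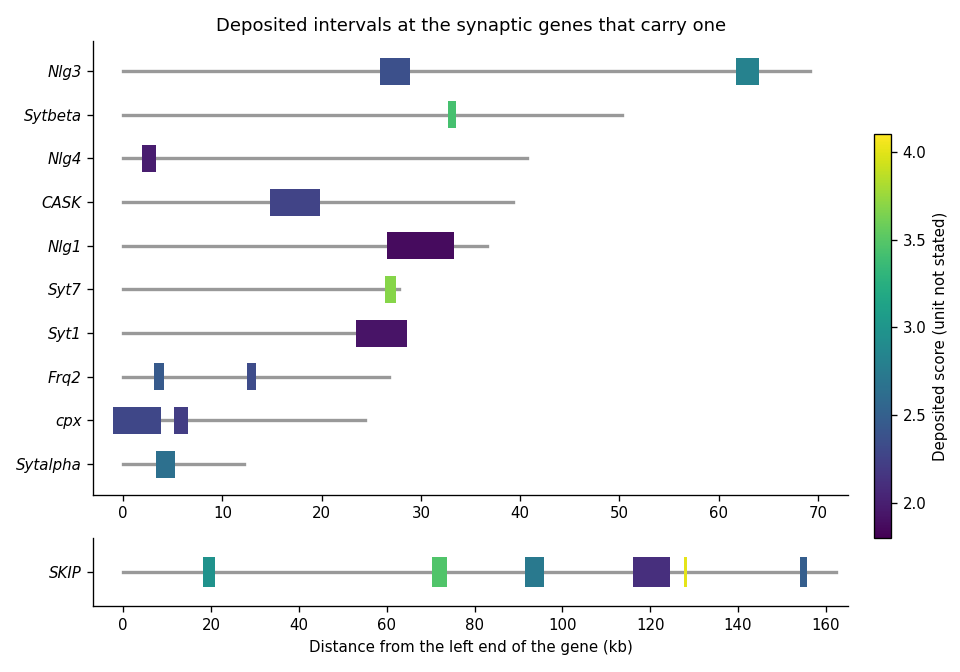
The 11 synaptic genes with an interval, drawn to scale as grey lines from the left end of each gene (kb, with a separate scale for SKIP), with each deposited interval as a bar coloured by its score. Most genes have 1 or 2 bars, SKIP has 6, and the bars of cpx and Syt1 reach past a gene end.

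The synaptotagmins are vesicle proteins that bind calcium or membranes through C2 domains. Syt1 (CG3139, arm 2L, 2772327 to 2799979) encodes the calcium sensor for fast transmitter release. Its single interval, at 2795796 to 2800935, had a score of 1.92 and an FDR of 0.00453, and it ran 956 bp past the right end of the gene, where it also met the non-coding gene lncRNA:CR43821. Only 8.06% of the intervals in the list had a lower score. The interval was 5140 bp wide and covered 15.1% of the gene.

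Syt7 (CG2381, arm 4, 278685 to 306481), a synaptotagmin that modulates release, had an interval at 305074 to 306124 with a score of 3.68 and an FDR of 1.86e-05. It lay 357 bp inside the right end of the gene, and 76.3% of the list scored lower. At Sytalpha (CG5559, arm 2L, 17592260 to 17604387) the interval at 17595605 to 17597438 had a score of 2.64. Its FDR of 9.84e-10 was the lowest of the 19. At Sytbeta (CG42333, arm 3L, 15014695 to 15064977) the interval at 15047389 to 15048199 had a score of 3.42 and an FDR of 0.00198. That interval also met CG43678, 1 of 12 protein-coding genes that overlap the body of Sytbeta, so it cannot be given to Sytbeta alone. The 4 scores thus ran from near the bottom of the list at Syt1 to well above its median of 2.83 at Syt7.

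Syt4 (CG10047, arm 3R), a synaptotagmin studied in the fly for retrograde signalling from the postsynaptic side, was the group's shortest gene at 4.75 kb. It had no interval within 62508 bp. Among all protein-coding genes under 5 kb, 5.46% carried an interval. At the shares of their length classes 1.84 of the 5 synaptotagmin genes would have carried one, against the 4 counted.

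Of the 7 SNARE and fusion regulator genes 1 carried an interval, where 1.46 would have at the shares of their length classes. No interval met nSyb or Snap25, which encode SNAREs of the vesicle and the plasma membrane, or Rop, the SNARE-binding Sec1/Munc18 protein. The same held for comt, the NSF ATPase that takes SNARE complexes apart, and for Csp, a vesicle chaperone. Their nearest intervals were 24695 bp away at nSyb, 44374 bp at Snap25, 21419 bp at Rop, 20512 bp at comt and 23892 bp at Csp. Apart from Snap25 these are short genes of 2.64 to 7.41 kb, in classes where 5.46% or 10.6% of protein-coding genes carried an interval.

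Syx1A (CG31136, arm 3R, 24101600 to 24105763), the plasma membrane syntaxin, lay closest to an interval among the genes without one. The interval at 24089929 to 24099811, with a score of 2.52, ended 1789 bp from the gene. Amph came next with an interval 2419 bp away (score 2.70), and shi followed with one 3529 bp away (score 2.72). These 3 genes would be counted with 5 kb flanks. On the inner side of the rule, the intervals closest to a gene end were those that spanned an end of cpx and of Syt1 and the one at Syt7.

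Complexin, which clamps spontaneous fusion and aids evoked release, was the only member of this group with intervals. At cpx (CG32490, arm 3R, 4280221 to 4304604) the first, at 4279233 to 4284067, had a score of 2.29 and spanned the left end, where it also met lncRNA:CR45597. The second, at 4285331 to 4286734, had a score of 2.21. Both carried an FDR of 1.53e-08, and together they covered 21.5% of the gene, the largest covered share of the 11 genes.

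Snap25 (CG40452, arm 3L, 24074180 to 24299205) was the longest gene of the list at 225 kb, yet it had none. Of the 9 protein-coding genes at least as long, Snap25 included, 3 carried an interval and 6 did not. Among the 83 genes over 100 kb, 67.5% carried one. Around Snap25, 9 intervals lay within 500 kb outside the gene, against a median of 19 over all protein-coding genes.

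Active zone scaffolds, long genes apart from Liprin-alpha, formed a group without intervals. These were brp, which encodes the ELKS-related protein Bruchpilot of the T-bar, Rim and its binding partner Rbp, the vesicle priming factor unc-13, and Liprin-alpha, a scaffold of synapse assembly. Their lengths were 37.8 kb for brp, 43.8 kb for Rim, 27.9 kb for Rbp, 44.5 kb for unc-13 and 8.86 kb for Liprin-alpha. An interval was present at 55.3% of protein-coding genes of 30 to 50 kb, at 41.3% of those of 20 to 30 kb and at 10.6% of those of 5 to 10 kb. At such shares 2.18 of the 5 genes would have carried one, and 2.06 at those of the length deciles, where 0 did. The group's mean share was 41.1% by decile and 43.6% by the narrower classes. A count of 0 among 5 genes leaves a Wilson 95% interval of up to 43.4%, counting error only. Because the genes were chosen by name, that interval is no test against the mean share, and the difference was not tested. Among the further presynaptic genes described below, 4 of 13 active zone and release genes carried an interval and 9 did not. The count of 0 thus holds for these 5 genes and not for active zone genes at large.

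The nearest interval to brp was 6441 bp away, at 9548006 to 9549278 on arm 2R with a score of 2.25. For Rbp the distance was 16126 bp, for unc-13 32744 bp, for Rim 48078 bp and for Liprin-alpha 108670 bp. Within 500 kb outside the gene there were 24 intervals around Rim, 21 around Rbp, 17 around brp, 14 around unc-13 and 5 around Liprin-alpha, against the median of 19.

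Vesicle-associated and endocytic genes gave the same count of 0. Syn, which encodes the vesicle-tethering phosphoprotein synapsin, was 15176 bp from its nearest interval. The vesicle-associated gene Sap47 was 126241 bp away. Among the endocytic genes, shi encodes dynamin and Amph amphiphysin, while lap encodes the AP180 clathrin adaptor, and the nearest interval to lap was 46615 bp away. The lipid phosphatase gene Synj lay at 69924 bp, and EndoA, which encodes the membrane-bending endophilin, at 37028 bp. The stoned B gene stnB was the farthest of all 36 from an interval, at 147485 bp, and only 1 interval lay within 500 kb of it. At the shares of their lengths, 0.966 of the 2 vesicle-associated genes and 1.26 of the 6 endocytic genes would have carried one. Among the further presynaptic genes described below, 1 of 9 endocytosis genes carried an interval and 8 did not.

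**Figure D2:**
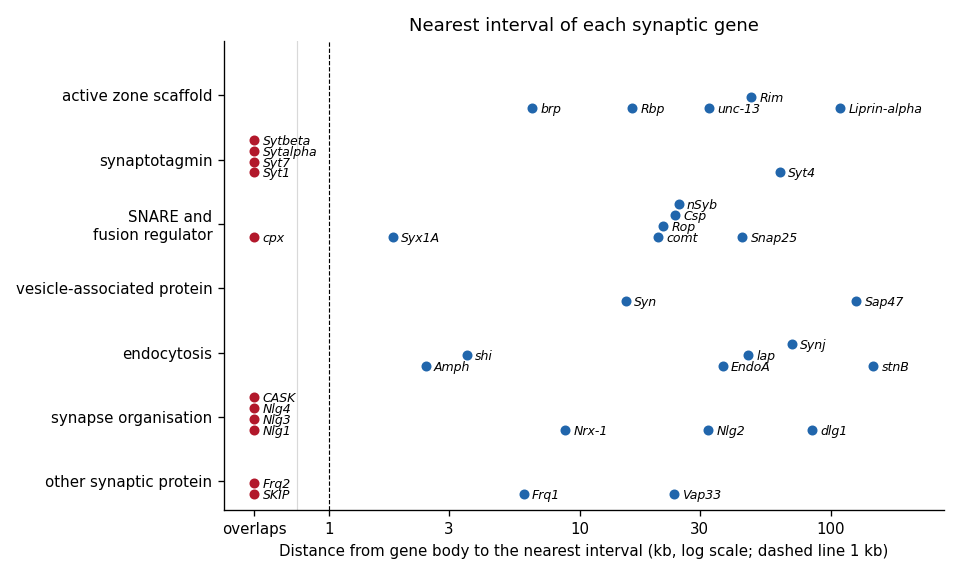
Distance from the body of each of the 36 genes to the nearest interval (kb, log scale), by role group, with the 11 genes that overlap an interval in red at the left and the 25 others in blue. The dashed line marks 1 kb, and Syx1A at 1789 bp is the closest gene beyond it.

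Neuroligins are adhesion proteins that bind neurexin across the synaptic cleft, and 3 of the 4 genes carried intervals. By length, Nlg3 belongs to a class in which 72.8% of protein-coding genes carried an interval. For Nlg1, Nlg2 and Nlg4 the class share was 55.3%. Nlg3 (CG34127, arm 3R, 7570281 to 7639434) had a pair, at 7596173 to 7599165 (score 2.36, FDR 1.23e-05) and at 7632048 to 7634288 (score 2.82, FDR 0.00391). Its neighbour Nlg1 (CG31146, arm 3R, 7658247 to 7694874), 18812 bp farther along the arm, had 1 interval at 7684798 to 7691571. This was the second widest of the 19, at 6774 bp, and had the lowest score, 1.87, with an FDR of 0.00011.

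Nlg4 (CG34139, arm 3R, 20204809 to 20245473) had an interval at 20206698 to 20208099, with a score of 1.98. Its FDR of 0.00883 was the highest of the 19 and equalled the highest in the list, and the interval also met the overlapping gene CG17199. Nlg2 on arm 2L had none, although at 31.8 kb it is close to Nlg1 (36.6 kb) in length, and its nearest interval was 32403 bp away. All intervals at neuroligins scored below the list's median of 2.83.

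CASK (CG6703, arm 3R, 21783400 to 21822674), which encodes a membrane-associated guanylate kinase that binds neurexin, had an interval at 21798202 to 21803262. Its score was 2.26 and its FDR 6.45e-05, and the same interval also met the microRNA genes mir-999 and mir-4969. Neurexin itself, Nrx-1, had none within 8733 bp. The guanylate kinase scaffold gene dlg1 on X, at 40.1 kb, was 84192 bp from an interval. At the shares of their lengths 3.72 of the 7 genes of synapse organisation would have carried an interval, near the 4 counted.

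Frequenins are neuronal calcium sensors, encoded in the fly by a pair of adjacent genes on X that lie 2867 bp apart. Frq2 (CG5907, 18177612 to 18204407) had intervals at 18180693 to 18181719 (score 2.44, FDR 0.00453) and at 18190110 to 18191006 (score 2.33, FDR 5.26e-05). Frq1 (CG5744, 18155369 to 18174744) had none, and the nearest to it, 5949 bp away, was the first of those at Frq2. Vap33, which encodes a membrane protein of the endoplasmic reticulum at contact sites, was 23575 bp from an interval. With SKIP these genes form the group of 4 other synaptic genes, of which 2 carried an interval and 1.42 would have at the shares of their lengths.

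The gene with most intervals was SKIP (CG31163, arm 3R, 22133830 to 22296126), named for its interaction with the potassium channel Shal. It carried 6 of the 19. From left to right these lay at 22151945 to 22154708 (score 2.97), 22204245 to 22207479 (3.47), 22225401 to 22229613 (2.73), 22249950 to 22258356 (2.11), 22261544 to 22262308 (4.01) and 22287853 to 22289524 (2.48). They were spread over the gene, with gaps between neighbours of 3187 to 49536 bp.

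The fifth interval of SKIP had the highest score of the 19, with an FDR of 6.97e-07, and 84.8% of the list scored lower. The fourth, which stood 3187 bp before it, was the widest of the 19 at 8407 bp and ranked 2016 of 2394 by score. The second also met lncRNA:CR45224. SKIP is 162 kb long, and among the 83 protein-coding genes over 100 kb the median was 2 intervals and the mean 2.41. Among them 7 genes, SKIP included, had at least 6, and over all protein-coding genes 11 did.

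The same 11 genes were found with gene bodies alone (background 8.32% of protein-coding genes), with interval midpoints (8.91%) and with the nearest gene (9.75%). With 5 kb flanks 14 genes were counted (38.9%, against 19.9%). The count was lower with fewer intervals kept. The 1203 intervals with a score of at least 2.83 met 3 of the 36 genes, Syt7, Sytbeta and SKIP (8.33%, against 5.92% of all protein-coding genes). The 1214 intervals with the lowest FDR met 8 of them (22.2%, against 5.62%), all 11 but Syt1, Sytbeta and Nlg4. Arm 3R carried 6 of the 11 genes and 13 of the 19 intervals, and without it 5 of 21 genes had one (23.8%, against 10.6%). These backgrounds cover all protein-coding genes, which are mostly shorter than the synaptic genes. Backgrounds by gene length are not given for these alternatives, so the differences cannot be read apart from length.

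Gene length moved with these counts and was therefore set beside them. The median length of the synaptic genes was 25.6 kb, against 2.16 kb for all protein-coding genes, and 23 of the 36 belonged to the longest of 10 length deciles, which starts at 14627 bp. In that class 47.7% of genes carried an interval, and 10 of the 23 synaptic genes did. With each synaptic gene given the share of its length decile, 12.4 of the 36 (34.4%) would have carried an interval, against the 11 counted. With 7 length classes that divide the long genes more finely, the number was 12.9 (35.7%).

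The count of synaptic genes with an interval was thus near what genes of these lengths carried in this list. The difference was not tested. Among genes of 20 to 30 kb, 4 of 7 synaptic genes had an interval against 41.3%. Among those of 30 to 50 kb, 3 of 9 did against 55.3%. None of the 10 synaptic genes up to 10 kb carried one, in classes where 5.46% or 10.6% of protein-coding genes did.

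**Figure D3:**
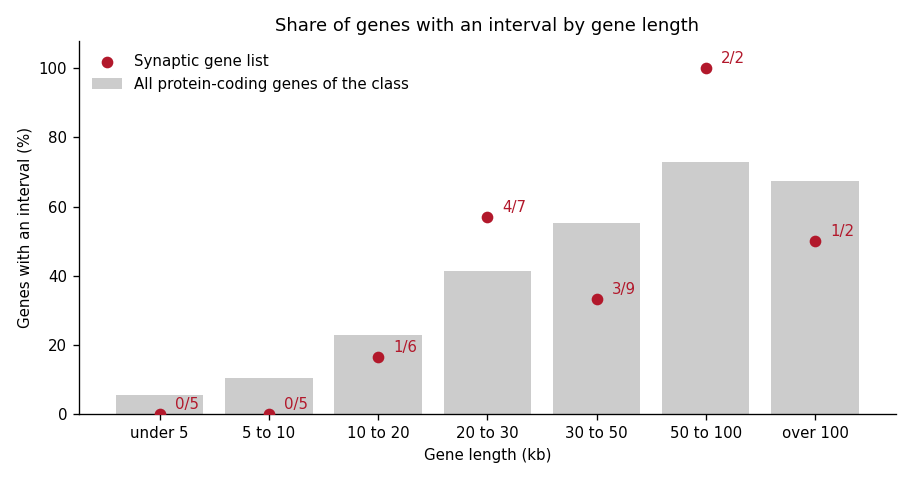
Percentage of genes with an interval by gene length (kb), with grey bars for all protein-coding genes of each class and red points for the synaptic genes, labelled with the number that carried one over the number in the class. The bars rise from 5.46% under 5 kb to 72.8% at 50 to 100 kb, and the points lie on either side of them.

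Per length, the synaptic genes carried 1.60 intervals per 100 kb of gene body, or 1.27 without SKIP. Over all protein-coding genes longer than 20 kb the value was 2.11, and over the 20 synaptic genes of that length it was 1.73. The share of gene body covered was 5.08% in those 20 genes and 3.92% in all genes longer than 20 kb. Without SKIP it was 3.62% in the other 19, so the direction of that difference rested on SKIP. These differences were not tested.

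Scores at the synaptic genes lay mostly in the lower part of the list. They ranged from 1.87 to 4.01 with a median of 2.44, against 2.83 over the 2394 intervals and also 2.83 over the 1065 intervals at other protein-coding genes longer than 20 kb. Of the 19, 5 scored above the list's median, namely 3 at SKIP and 1 each at Syt7 and Sytbeta. Without SKIP, 2 of 13 did and the median was 2.33. The second interval of Nlg3, at 2.82, fell just under the median.

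The intervals at synaptic genes had a median width of 2241 bp against 1617 bp over the list. Without SKIP the median was 1834 bp, and at other genes longer than 20 kb it was 1776 bp. Between score and width, Spearman's rho was -0.53 across the 19 intervals and -0.44 across the list, given as a description because intervals are not independent. The FDR did not place the 19 intervals in the same way, since their median was 6.45e-05 against 0.000267 over the list. How score and FDR relate in the submitters' processing is not given in the sources used here.

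**Figure D4:**
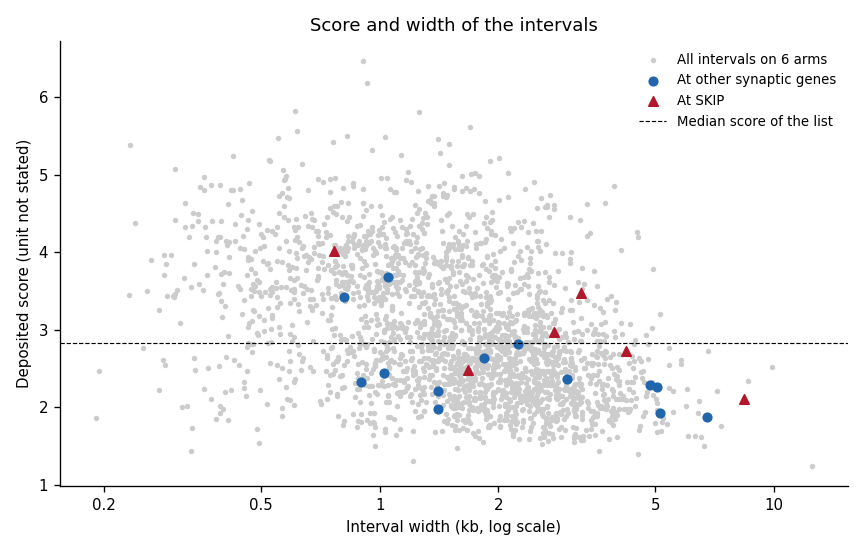
Deposited score (unit not stated) against interval width (kb, log scale) for the 2394 intervals in grey, with the 6 at SKIP as red triangles and the 13 at other synaptic genes in blue. Of these 19 points, 14 lie below the dashed line at the list's median score of 2.83, and the 2 widest have scores of 1.87 and 2.11.

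The 25 genes without an interval lay about as far from one as other genes without one. Their median distance to the nearest interval was 24695 bp, against 25861 bp over the 12410 protein-coding genes without an interval and 27639 bp over the 452 of these longer than 20 kb. An interval lay within 10 kb of 6 of the 25 (24.0%, against 21.8%), and more than 50 kb from another 6 (24.0%, against 24.9%). Within 500 kb outside the gene, the median number of intervals was 18 for these genes and 16 for the 11 genes with one.

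A further 37 presynaptic genes, written down from general knowledge, were counted in the same way. Of these, 8 (21.6%, Wilson 95% interval 11.4% to 37.2%) carried an interval, where the shares of their length deciles would have given 8.35. The active zone genes among the 8 were Fife, RhoGAP100F and Spn. Fife, related to Rim, had scores of 2.60 and 3.54. RhoGAP100F, which encodes the assembly factor Syd-1, had 4.06, and Spn, which encodes spinophilin, had 1.77 and 4.56. Rab27, a vesicle GTPase gene, had an interval with a score of 3.71 that also met mei-38. The calcium channel gene cac, at 53.8 kb, had none within 81293 bp. In this second list 13 genes were grouped as active zone and release genes. Of these 4 carried an interval, where the shares of their length deciles would have given 4.81 and those of the narrower classes 5.4, and 9 did not.

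Dap160, which encodes the endocytic scaffold intersectin, had an interval with a score of 2.36 across its right end, where it also met pths. Vti1a, a SNARE gene, was counted through its flank alone, by an interval 692 bp away with a score of 2.91 that also met RabX6. None of AP-2alpha, AP-2mu, AP-2sigma, Chc and Clc, the clathrin and adaptor genes, carried one, and they belong to length classes where 5.46% or 10.6% of genes did.

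T4/T5 neurons are cholinergic. ChAT, which encodes the acetylcholine-synthesising enzyme, and VAChT, which encodes the vesicular acetylcholine transporter, share a left end on arm 3R, and the same 3 intervals were counted for both. They lay at 18702074 to 18705781 across the shared left end (score 2.86, FDR 0.000152), at 18708530 to 18709854 (score 3.45, FDR 2.26e-06) and at 18718032 to 18722002 (score 2.10, FDR 0.000739). The third crossed the right end of VAChT and lay inside ChAT. The transporter genes of other transmitters, VGlut, VGAT and Vmat, carried none, in length classes with shares from 5.46% to 41.3%. At such shares 1.34 of these 5 genes would have carried an interval, against the 2 counted. Because ChAT and VAChT share their intervals, they are 1 locus and not a pair of separate observations, as are stnA and stnB, which have the same coordinates in the gene table.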

How the data were processed

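The data are an interval list from Targeted DamID of 3 Dam and 3 Dam-Drgx samples. Per the labels' protocols, genomic DNA came from dissected brains. The submitters' processing notes name the genome build BDGP6. Aligner, caller, filters and pooling are not given in the sources used here. The deposited score is 1 number per interval with no stated scale, and the deposited FDR stands as text in the same file.

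Starts were converted from zero-based to 1-based positions. Genes came from a RefSeq table of Release 6, without strand, exons or sequence, so the planned motif counts were not made. Overlaps, length deciles and Wilson intervals were computed with scipy 1.17.1, pandas 2.3.3 and numpy 2.4.6 in Python 3.11.15, and figures with matplotlib 3.10.9. Overlap counting was tested on simulated intervals. The members and lists were chosen with earlier results of these data known, so shares are given without a test. All members are named, as are other presynaptic genes with an interval and a few without, chosen after their values were seen. The 38 names of the second list gave 37 genes, since syd-1 and RhoGAP100F are the same gene. Alternatives were 0 and 5 kb flanks, the midpoint rule, the nearest gene, intervals of high score or low FDR, joined intervals, and leaving out each arm. The 7 narrower length classes and the counts without SKIP were added after the data were seen.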

Additional observations from a re-analysis of the deposited data

How the results depend on the processing

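Of the 8 planned kinds of alternative, most left the 3 counts (11 synaptic genes, 19 intervals and 8 other presynaptic genes) within 1.5 times their values. With gene bodies alone, with the midpoint rule, with joined intervals and with the nearest gene, the 11 genes were the same. With 5 kb flanks Syx1A, shi and Amph joined them. Among the 1203 intervals with a score of at least 2.83, 3 of the 36 genes (Syt7, Sytbeta and SKIP, 8.33%) remained with 5 intervals. Of the 37 other presynaptic genes 7 had one (18.9%), against 5.92% of all protein-coding genes. ChAT and VAChT were counted separately in that number although they share their intervals, and gene length was not taken into account. Among the 1214 intervals with the lowest FDR, 8 of the 36 genes (22.2%) remained with 11 intervals. Of the 37 other presynaptic genes 5 had one (13.5%), ChAT and VAChT again counted separately, against 5.62% of all protein-coding genes. Without arm 3R the counts were 5 of 21 synaptic genes with 6 intervals and 5 of 28 other genes (all protein-coding genes 10.6%). Without arm 3L 5 of 31 other genes had one (all protein-coding genes 10.7%). Dropping intervals, or an arm with its genes, can only lower or keep a count. Whether anything else lay behind these falls was not tested. Without SKIP, 10 of 35 genes carried 13 intervals. No paired analysis was possible because the list names no sample. Motif counts were not run. Depth limits are unknown, since the list holds no counts.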
